A study of Mus musculus with 6 samples.

Results

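The 9 genes described here encode subunits of the NADPH oxidases and close partners of theirs, namely Cybb, Cyba, Ncf1, Ncf4, Nox1, Nox4, Rac1, Rac2 and Poldip2. They were taken by name, and the estimated counts and TPM values of their GENCODE M21 transcripts were summed, 9 of the 35968 genes that had a transcript in the data. RNA-seq was done on MS-5, a mouse bone marrow stromal cell line, either cultured alone (MS-5 only, libraries MO1, MO2 and MO3) or co-cultured for 24 hr with SKM-1, a human AML cell line (co-culture, libraries MC1, MC2 and MC3). The co-cultures were plated with 4 SKM-1 cells per stromal cell, at 750000 SKM-1 cells per ml over confluent MS-5 cells. The stromal layer was washed and lightly trypsinised to take off leukaemic cells before the MS-5 cells were detached, and the reads were counted on mouse transcripts. Nothing in the labels says whether the libraries of a group came from separate cultures on separate days, so the p-values measure the spread between these libraries, which may be technical.

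NADPH oxidases are membrane enzymes that pass electrons from NADPH to oxygen and so make superoxide or hydrogen peroxide. The phagocyte enzyme pairs a catalytic chain, encoded by Cybb, with a membrane partner, encoded by Cyba, and is switched on when cytosolic proteins, Ncf1 and Ncf4 among them, and a Rac GTPase join it. Nox4, which is found in many mesenchymal cells, also needs the Cyba product but not the cytosolic organisers, and is active without a stimulus. The comparison bears on how MS-5 cells respond to leukaemic cells, with reactive oxygen species among the processes of interest to the study.

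MS-5 cells cultured alone held transcripts of Nox4, Cyba, Rac1 and Poldip2, less of Ncf4, and next to none of Cybb, Ncf1 and Rac2. In co-culture, Rac2 and Cybb rose, from under 1 CPM (counts scaled to library size by TMM) in every MS-5 only library, whereas Nox4, Cyba, Rac1, Poldip2 and Ncf4 did not pass the test. The increases were unequal, with most of the excess in MC2. Some leukocyte markers, such as Spi1, were also highest there, and others, such as Lyz2 and Cd53, were not. For the 491 genes called higher in co-culture, the excess in MC2 was at the median 5.98 times the mean excess of MC1 and MC3. The calls of Rac2 and Cybb were lost when any single MS-5 only library was left out, in fits where 0 of all genes tested passed. Their log2 fold changes then lay between 5.38 and 6.10 for Rac2 and between 4.36 and 5.38 for Cybb. Of the Rac2 counts in co-culture, 98.0% were those of 1 short transcript of 254 bases. In the quasi-likelihood test of edgeR, at a Benjamini-Hochberg adjusted p under 0.1, 2 of the 8 members tested were higher in co-culture and 0 were lower. Over all 13221 genes tested, 4.38% passed, 3.71% higher and 0.666% lower. The adjusted p-values below are from this test unless another is named. At an unadjusted p under 0.05, 3 of the members differed, against 14.3% of all genes. The MC libraries all lay above the MO libraries in 4 of the 8 members (Cybb, Ncf1, Nox4 and Rac2) and in 11.6% of all genes, and below in 0 members and in 9.6% of all genes. The median log2 fold change was 0.31 in the 8 members tested and -0.02 over all genes tested.

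Total estimated counts lay between 23978881 and 35694987 per library. MO2 and MC3 stood apart from the other 4 libraries, with 65170 and 66456 transcripts that had a count against 51533 to 57350, and with 6.03% and 5.89% of counts in mitochondrial genes against 10.5% to 13.1%. Neither the labels nor the methods name a batch. For a single gene, 3 libraries against 3 allow no two-sided exact permutation p below 0.1.

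Levels in MS-5 only were compared between genes as TPM, which is corrected for transcript length. Rac1 was the highest at 510 ± 44.1 TPM (SD, n = 3), followed by Poldip2 at 93.1 ± 11.1 TPM (SD, n = 3), Cyba at 64.4 ± 10.7 TPM (SD, n = 3) and Nox4 at 12.5 ± 1.78 TPM (SD, n = 3). The ranges of these 4 genes did not overlap with that of the next gene in the order. Ncf4 came next at 4.67 ± 1.61 TPM (SD, n = 3), above each of the remaining 4 genes in all 3 libraries, although its range overlapped with that of Rac2. Rac2, Cybb, Nox1 and Ncf1 were each under 0.4 TPM in MO1 and MO3, and the range of each overlapped with that of the next, so that their order is not settled by the libraries. The mean of Rac2, 1.33 TPM, came from MO2 with 3.90 TPM, against 0.0802 in MO1 and 0.0166 in MO3. In counts MO2 was close to MO1 (7 against 5), and its TPM rests on 6 counts of the transcript Rac2-203, which had an effective length of 80.7 bases there.

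**Figure D1:**
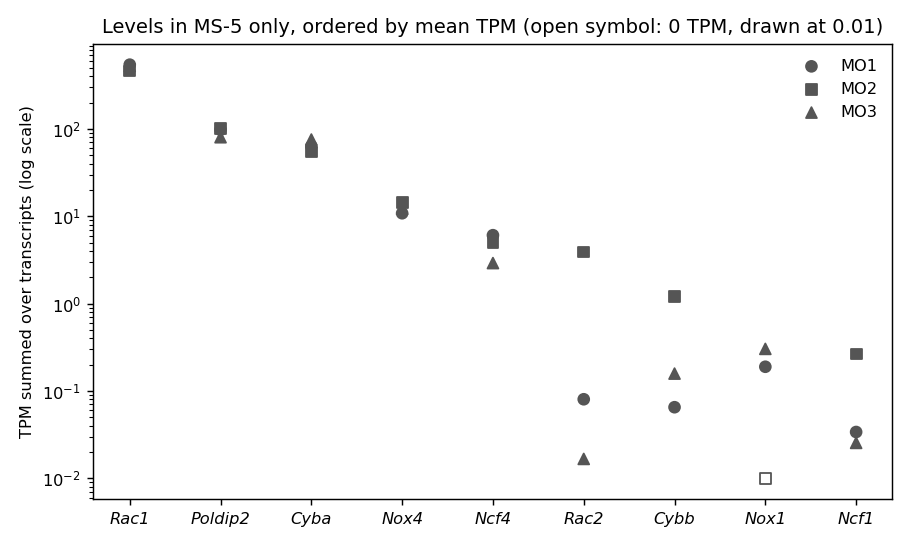
TPM of the 9 genes in MO1, MO2 and MO3, on a log axis and ordered by their mean, with 1 symbol per library. Rac1, Poldip2, Cyba and Nox4 lie in separate bands, and Rac2, Cybb, Nox1 and Ncf1 scatter below 4 TPM.

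Among the catalytic chains, Nox4 (GRCm38 chromosome 7, 87246096 to 87398710, plus strand) was the main one in MS-5 only. It had 28.1, 25.2 and 29.5 CPM in MO1, MO2 and MO3, and 30.7, 31.98 and 32.6 CPM in MC1, MC2 and MC3. The groups did not overlap, but they lay close together, and in TPM they overlapped, with 10.8 to 14.4 TPM against 11.8 to 19.8 TPM. The log2 fold change was 0.20 (SE 0.12, edgeR adjusted p = 0.555). The largest share of its counts, between 43.9% in MO2 and 70.8% in MO3, was assigned to the transcript Nox4-205, which is annotated as subject to nonsense-mediated decay. Of the 31-base words in that transcript, 99.2% also occur in the coding transcript Nox4-201, and all of the others occur in further Nox4 transcripts, so this split between isoforms is uncertain. It was also unsteady, with 0 counts for Nox4-201 in MO3 and 279 in MO2.

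Cybb (chromosome X, 9435252 to 9487771, minus strand), the catalytic chain of phagocytes, had counts of 7, 26 and 6 in the MO libraries, in the order of their numbers, against 134, 632 and 165 in the MC libraries. As normalized values these were 0.279, 0.828 and 0.272 CPM against 4.09, 26.3 and 4.80 CPM. The groups did not overlap, and MC2 lay far above the other co-culture libraries. Cybb rose from 0.460 ± 0.319 CPM (SD, n = 3) to 11.7 ± 12.6 CPM (SD, n = 3), a log2 fold change of 4.62 (SE 0.96, edgeR adjusted p = 0.0848). Without MC2 the log2 fold change was 3.23 (edgeR adjusted p = 0.0823). The call was lost without MO1, MO2 or MO3, where the adjusted p was 0.30, 0.149 and 0.29, and those fits called 0 genes of all genes tested.

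Nox1 (chromosome X, 134086421 to 134221956, minus strand), a catalytic chain best known from colon epithelium, was close to absent. Its counts were 3, 0 and 4 without SKM-1 cells and 2, 0 and 1 with them, and did not pass the filter on low counts. A count of 0 in MO2 or MC2 allows a level of up to 0.0955 or 0.125 CPM, taking 3 counts as the limit, for counting error only.

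Cyba (chromosome 8, 122424776 to 122432930, minus strand), whose product is the membrane partner of the Nox4 and Cybb chains, had 32.2, 18.0 and 39.8 CPM in MO1, MO2 and MO3, and 41.7, 55.2 and 23.5 CPM in MC1, MC2 and MC3. The groups overlapped, because MC3 was lower than MO1 and MO3. MO2 and MC3, the libraries that stood apart, were the lowest of their groups. Within that pair Cyba was higher in co-culture, and it was higher in MC1 and MC2 than in MO1 and MO3 as well. The log2 fold change was 0.42 (SE 0.39, edgeR adjusted p = 0.749), while a covariate that set MO2 and MC3 apart gave 0.41 (SE 0.14, edgeR adjusted p = 0.0792), a fit in which 30.2% of all genes passed.

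The cytosolic organisers Ncf1 and Ncf4 differed in level. Ncf1 (chromosome 5, 134220053 to 134229625, minus strand), which brings the cytosolic complex to the membrane chains, had 2, 13 and 1 counts in MO1, MO2 and MO3, against 24, 82 and 56 in MC1, MC2 and MC3. All 3 MC libraries were above all 3 MO libraries. The log2 fold change of 3.31 (SE 0.93, edgeR adjusted p = 0.148) did not pass the threshold. The adjusted p of Ncf1 fell to 0.0434 under the covariate that set MO2 and MC3 apart, to 0.0684 when replicate numbers were used as a block, and to 0.0134 in DESeq2's Wald test. It rose to 0.429 without MO1, 0.374 without MO3 and 0.402 without MC2, and over the fits that left out each library the log2 fold change lay between 2.62 and 4.82. In each of the 2 Ncf1 transcripts with counts, 201 of the 31-base words also occur in Gtf2ird2, so its level is uncertain.

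Ncf4 (chromosome 15, 78244801 to 78262580, plus strand), which binds a lipid of phagosome membranes, had 5.55, 2.26 and 2.95 CPM in MO1, MO2 and MO3, and 4.36, 5.36 and 1.86 CPM in MC1, MC2 and MC3. The groups overlapped, with a log2 fold change of 0.11 (SE 0.50, edgeR adjusted p = 0.98). The counts were mostly those of transcripts with a retained intron. The full coding transcript Ncf4-201 had 13.3, 0 and 12.7 estimated counts in the MO libraries against 7.3, 0 and 0 in the MC libraries.

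The Rac GTPases act as switches of the assembled oxidase and have many other roles in the cytoskeleton. Rac1 (chromosome 5, 143503634 to 143528036, minus strand), which is expressed in most cell types, had 592, 332 and 586 CPM in MO1, MO2 and MO3, and 621, 627 and 353 CPM in MC1, MC2 and MC3. MO2 and MC3 were again the lowest of their groups, and the groups overlapped. Its log2 fold change was 0.08 (SE 0.33, edgeR adjusted p = 0.973). Between 73.3% and 75.2% of its counts were assigned to Rac1-202 in each library. Rac1-201 has 576 coding bases and Rac1-202 has 633. Of the 2295 words of 31 bases in Rac1-202, 431 also occur in Daglb, as do 2279 of the 4129 words of Rac1-201, which held 5.58% to 7.23% of the counts.

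Rac2 (chromosome 15, 78559167 to 78572783, minus strand), the Rac of blood cells, had counts of 5, 7 and 1 in the MO libraries against 121, 470 and 128 in the MC libraries. In CPM it had 0.2, 0.223 and 0.0453 against 3.69, 19.5 and 3.73. The groups did not overlap, and MC2 stood far above MC1 and MC3, which were alike. Rac2 rose from 0.156 ± 0.0965 CPM (SD, n = 3) to 8.98 ± 9.13 CPM (SD, n = 3), a log2 fold change of 5.76 (SE 0.97, edgeR adjusted p = 0.0734). Without MC2 it was 4.49 (edgeR adjusted p = 0.0338). For Rac2 without MO1, MO2 or MO3 the adjusted p was 0.30, 0.149 and 0.29, so the call was lost. Those fits called 0 genes of all genes tested, and the log2 fold change of Rac2 in them was 5.93, 6.10 and 5.38.

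The Rac2 counts of co-culture fell almost wholly on a short stretch of the gene. The transcript Rac2-203, of 254 bases, held 98.0% of the Rac2 counts of the co-culture libraries, with 117.9, 469.0 and 117.7 estimated counts in MC1, MC2 and MC3. The full transcript Rac2-201, of 3038 bases, had 3.2, 1 and 10 estimated counts there against 5.4, 1.1 and 1 in the MO libraries, so that its groups overlapped. Rac2-201 has 576 coding bases and 2324 bases after them, and 95.98% of the words of Rac2-203 lie within it, which make up 7.15% of the words of Rac2-201. Reads from the rest of Rac2-201 were therefore few in co-culture. Because the effective length of Rac2-203 was 85.1 bases in MC2, its TPM of 233 in that library overstates Rac2 beside longer genes.

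The coding part of Rac2-203, coding bases 339 to 576 of Rac2, is shown because it is where the rise was counted, beside the same coding bases of Rac1 and Rac3, the other mouse Rac genes. The sequences are GENCODE M21 transcripts on GRCm38, 5′ to 3′. Rac2 is on the minus strand at chr15:78564863-78564972 and chr15:78561911-78562038, Rac1 on the minus strand at chr5:143507327-143507436 and chr5:143506978-143507105, and Rac3 on the plus strand at chr11:120723231-120723340 and chr11:120723479-120723606. Capitals in Rac2 mark bases that differ from Rac1, and capitals in Rac1 and Rac3 mark bases that differ from Rac2.
Rac2: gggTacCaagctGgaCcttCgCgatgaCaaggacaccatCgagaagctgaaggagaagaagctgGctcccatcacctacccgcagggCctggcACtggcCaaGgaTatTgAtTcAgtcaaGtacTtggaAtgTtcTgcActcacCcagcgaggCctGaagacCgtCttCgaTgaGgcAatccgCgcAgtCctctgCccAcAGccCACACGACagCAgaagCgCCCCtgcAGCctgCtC
Rac1: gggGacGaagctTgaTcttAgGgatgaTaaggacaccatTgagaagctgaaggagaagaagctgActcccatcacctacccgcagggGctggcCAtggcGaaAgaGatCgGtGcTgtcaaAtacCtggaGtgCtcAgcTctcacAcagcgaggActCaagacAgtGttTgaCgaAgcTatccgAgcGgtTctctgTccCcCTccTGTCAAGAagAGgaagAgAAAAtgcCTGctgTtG
Rac3: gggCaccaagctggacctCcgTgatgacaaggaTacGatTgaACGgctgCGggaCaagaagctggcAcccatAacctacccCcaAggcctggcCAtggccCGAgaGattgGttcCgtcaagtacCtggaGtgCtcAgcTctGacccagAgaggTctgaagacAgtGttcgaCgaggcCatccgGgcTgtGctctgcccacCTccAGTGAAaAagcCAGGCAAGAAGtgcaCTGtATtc
Over these 238 bases, Rac1 differed from Rac2 at 61 bases (74.4% identity) and Rac3 at 64 bases (73.1% identity). The longest run shared with Rac2 was 24 bases in Rac1 and 14 bases in Rac3. No 31-base word of Rac2-203 occurs in a mouse transcript of another gene. Its likeness to human transcripts, such as those of the SKM-1 cells, was not tested, so whether these counts came from mouse or human RNA is not known.

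Poldip2 (chromosome 11, 78512193 to 78522736, plus strand), whose product binds the Cyba protein and raises Nox4 activity, had 150, 97.1 and 135 CPM in MO1, MO2 and MO3, and 137, 162 and 95.9 CPM in MC1, MC2 and MC3. The groups overlapped, with MO2 and MC3 lowest, and the log2 fold change was 0.05 (SE 0.25, edgeR adjusted p = 0.98). The direction for Ncf4, Rac1 and Poldip2 changed when some libraries were left out. For Poldip2 it also changed on log2(TPM + 0.5), and for Rac1 it also changed when the longest coding transcript was counted alone.

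**Figure D2:**
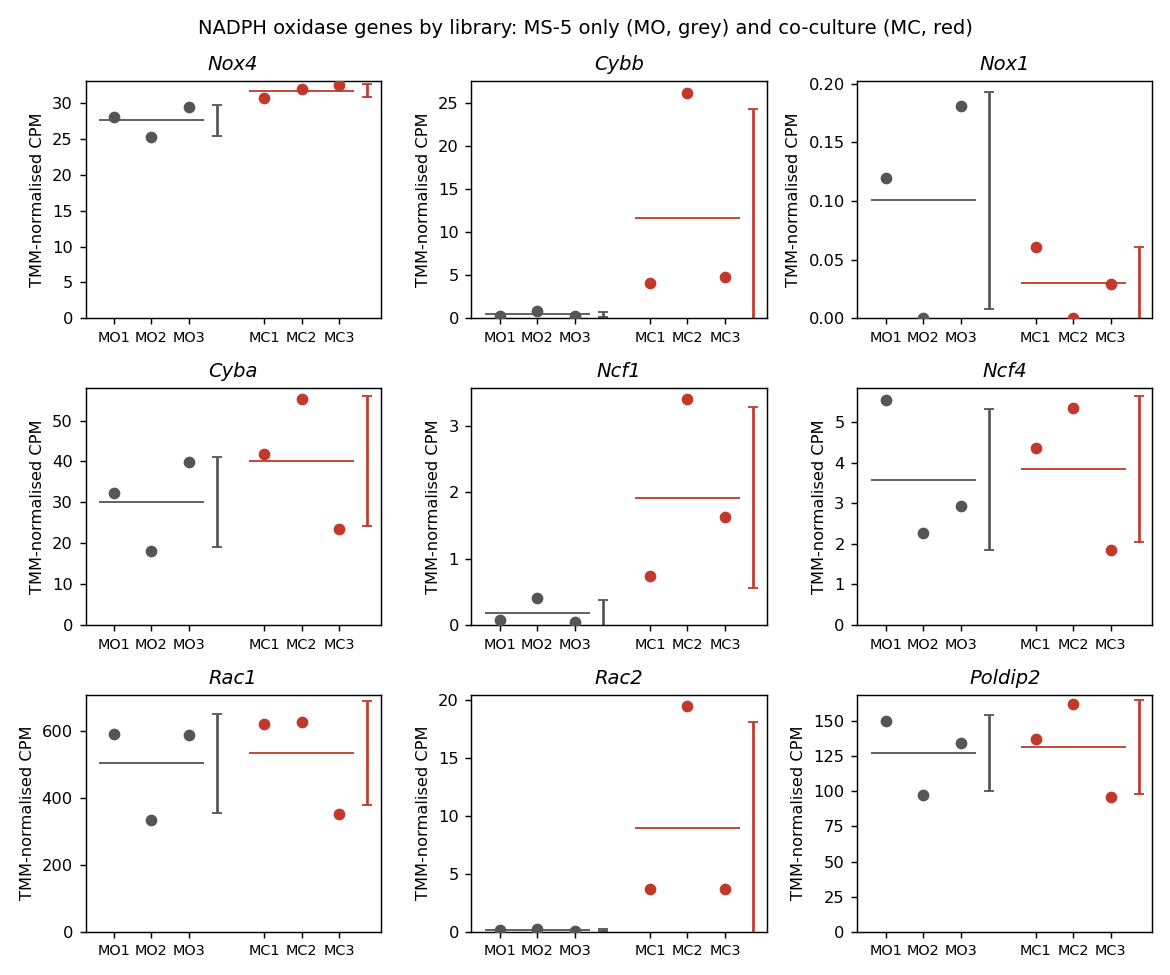
Normalized CPM of the 9 genes in each library, with a separate linear axis for each gene that starts at 0. Points are libraries, horizontal lines are group means and the bars beside them are SDs, cut at 0. MC2 is the highest library for Cybb, Ncf1 and Rac2, and also for Cyba, Rac1 and Poldip2. MO2 and MC3 are the lowest of their groups for Cyba, Rac1 and Poldip2.

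Other transcripts of the phagocyte genes showed how the counts were spread along each gene. For Cybb, the full transcript Cybb-201, of 4752 bases, took 76.6% of the co-culture counts, with 104.8, 481.3 and 126.7 estimated counts in MC1, MC2 and MC3 against 7, 21.8 and 4.6 in MS-5 only. The shorter Cybb-204, of 792 bases and annotated as subject to nonsense-mediated decay, had 29.2, 150.7 and 37.3 estimated counts in co-culture against 0, 0 and 1.4 without SKM-1 cells. Its share of the Cybb counts was close in all co-culture libraries, between 21.8% and 23.8%.

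For Ncf1, the transcript Ncf1-206, of 1497 bases, was listed at 0 in all 3 MO libraries, against 13.6, 77.6 and 25.3 estimated counts in MC1, MC2 and MC3. The coding transcript Ncf1-202, with the same 1170 coding bases and 1493 bases after them, had 10.4, 4.7 and 30.5 in co-culture, lowest in MC2, against 2, 12.8 and 1.4 in MS-5 only. These transcripts differ after the coding bases, where Ncf1-206 has 269. For Ncf4, the transcript Ncf4-206, of 540 bases, had 16.8, 90.9 and 19.2 estimated counts in co-culture against 0, 6.9 and 0 in MS-5 only. Meanwhile Ncf4-205 had 115.2, 38.1 and 41.9 against 124.4, 62.0 and 52.3. The sum over Ncf4 transcripts thus combined a transcript that was higher in every co-culture library with another whose groups overlapped. These transcripts were singled out after their values were seen, and no test was made on them.

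**Figure D3:**
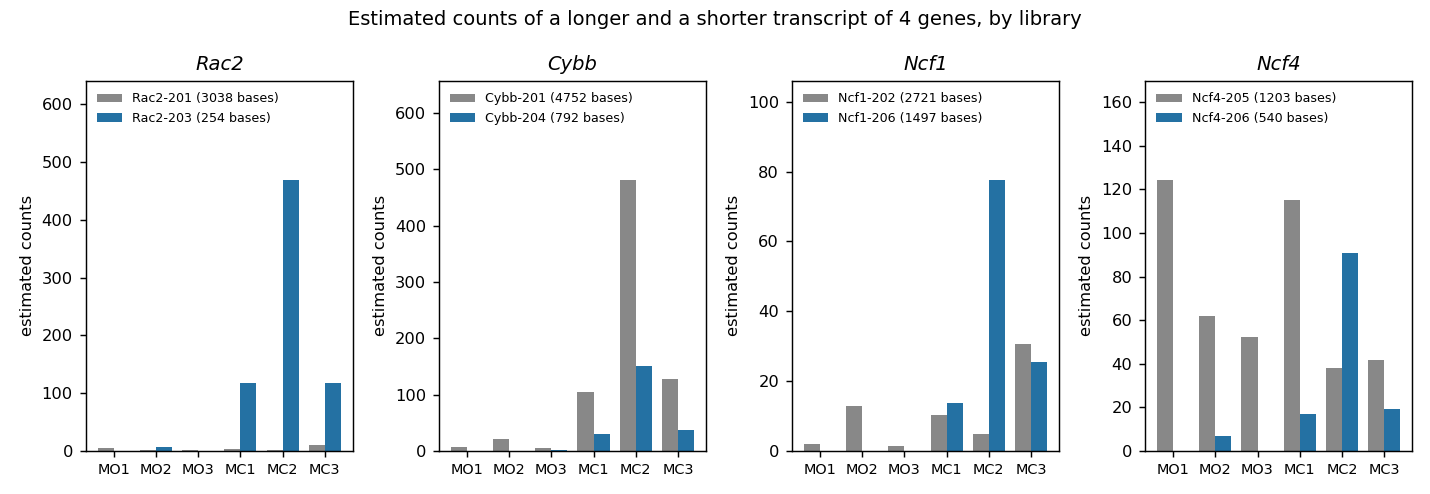
Estimated counts, not normalized, of a longer (grey) and a shorter (blue) transcript of Rac2, Cybb, Ncf1 and Ncf4 in each library, on linear axes that start at 0. The shorter transcript of each gene peaks in MC2, with 469 counts for Rac2-203, 150.7 for Cybb-204, 77.6 for Ncf1-206 and 90.9 for Ncf4-206.

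When each gene was represented by its longest coding transcript alone, an alternative chosen after the data were seen, 0 members passed an adjusted p of 0.1 in edgeR, against 2.03% (1.82% higher and 0.213% lower) of the 11717 genes then tested. Rac2, Ncf1 and Ncf4 no longer had enough counts to be tested. Cybb had a log2 fold change of 4.44 (edgeR adjusted p = 0.107). Other fits of the gene sums moved the count of members past 0.1 as well as the count over all genes. DESeq2's Wald test called 3 members, all higher, where 9.62% of all genes passed (6.9% higher, 2.72% lower). The fit with a replicate block called 3 members higher, where 3.36% of all genes passed (3.35% higher, 0.00756% lower). With the covariate for MO2 and MC3, 4 members were higher, where 30.2% of all genes passed (13.9% higher, 16.4% lower). Limma on log2(TPM + 0.5) called 1 member, Rac2, where 2.69% of all genes passed (2.56% higher, 0.129% lower).

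The 24 other genes of the oxidases and their regulators were read as a group. They comprise the remaining catalytic chains, organisers and maturation factors, the third Rac, Rac exchange factors, and proteins that hold or regulate Rac. Of these, 16 were tested, 2 were higher in co-culture and 0 were lower, against 3.71% and 0.666% of all genes, and 4 had an unadjusted p under 0.05, against 14.3% of all genes. Their median log2 fold change was 0.27, against -0.02 over all genes.

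Both genes that passed encode exchange factors that load Rac with GTP. Vav1, the Vav of blood cells, had counts of 1, 0 and 0 in the MO libraries against 39, 164 and 55 in the MC libraries (edgeR adjusted p = 0.0734), a ratio of 222 in normalized counts with a 95% exact interval from 39.5 to 8809 that covers counting error only. Prex1, an exchange factor of neutrophils, rose from 4, 14 and 3 counts to 68, 316 and 138 counts, a log2 fold change of 4.62 (SE 0.89, edgeR adjusted p = 0.0745). Both again were highest in MC2. Without any single one of the MS-5 only libraries both lost the call, with adjusted p-values of 0.30, 0.149 and 0.29 without MO1, MO2 and MO3. Those fits called 0 genes of all genes tested. The log2 fold changes in them were 9.52, 6.96 and 7.16 for Vav1 and 4.40, 5.38 and 4.36 for Prex1. The log2 fold change of Vav1 was 7.53, and 6.35 without MC2 (edgeR adjusted p = 0.0522). Without MC2 that of Prex1 was 3.56 (edgeR adjusted p = 0.089). Tiam1, another exchange factor, was too low to be tested, with 0 counts in all MO libraries against 5, 20 and 5 in MC1, MC2 and MC3, most of them in MC2. The remaining exchange factors on the list did not pass. Their log2 fold changes were -0.11 for Vav2 (edgeR adjusted p = 0.891), -0.25 for Tiam2 (edgeR adjusted p = 0.845) and 1.93 for Vav3 (edgeR adjusted p = 0.241).

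The genes that would complete other oxidases were at low levels or did not pass, and Cybc1 did not pass either. Cybc1, which the Cybb and Cyba proteins need to mature, was at 54.9 ± 2.59 CPM (SD, n = 3) without SKM-1 cells and at 51.7 ± 1.25 CPM (SD, n = 3) with them, a log2 change of -0.09 (SE 0.11, edgeR adjusted p = 0.85). Nox3, Noxa1, Duox2 and Duoxa2 had at most 3 counts in any library. Noxo1, the organiser of Nox1, had between 32 and 80 counts in every library, with a log2 fold change of 0.34 (SE 0.35, edgeR adjusted p = 0.788).

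Rac3 had 121 counts in MO2 and 111 in MC3, against 2 to 27 in the other 4 libraries, and so was high in the libraries that stood apart. Arhgdia, an inhibitor that holds Rac in the cytosol, had a log2 fold change of -0.26 (SE 0.34, edgeR adjusted p = 0.85). P4hb and Prkcd, a chaperone of oxidase subunits and a kinase that phosphorylates Ncf1, had log2 fold changes of 0.37 (SE 0.33, edgeR adjusted p = 0.737) and 0.45 (SE 0.21, edgeR adjusted p = 0.417). Under the covariate, Arhgdia (edgeR adjusted p = 0.0784, lower), P4hb (edgeR adjusted p = 0.036) and Prkcd (edgeR adjusted p = 0.0277) passed as well. In that fit 30.2% of all genes passed (13.9% higher, 16.4% lower).

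**Figure D4:**
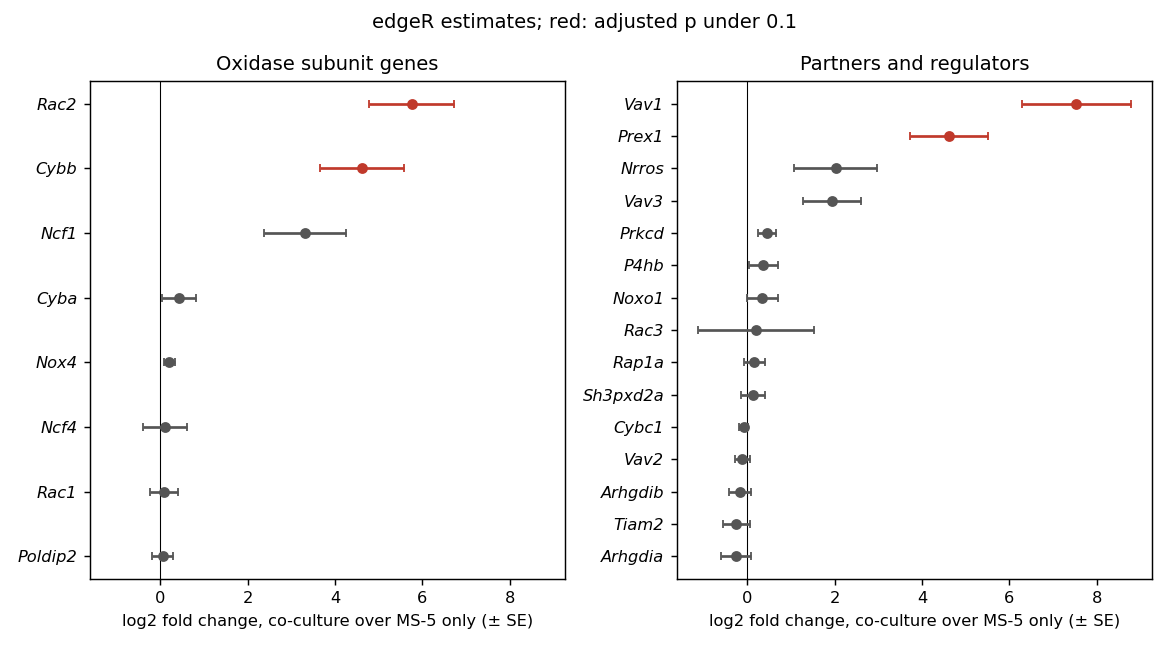
Log2 fold changes of co-culture over MS-5 only with their standard errors, from edgeR, for the 8 members (left) and other oxidase genes (right) that were tested, of which 1 is not shown. Red marks an adjusted p under 0.1. Rac2, Cybb, Vav1 and Prex1 are in red and lie above 4, and most other genes lie within 1 of 0.

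The excess over MS-5 only was unevenly shared between the co-culture libraries for Rac2 and Cybb, the members that passed, and for Ncf1, which did not. For each gene the mean CPM of MS-5 only was taken from each co-culture library. MC2 held 73.2% of the summed excess of Rac2, MC1 13.4% and MC3 13.5%. For Cybb the shares were 10.7% in MC1, 76.4% in MC2 and 12.9% in MC3. Ncf1 was less uneven, with 10.6%, 61.7% and 27.7%. In other words, the excess in MC2 was 5.45 times the mean excess of MC1 and MC3 for Rac2, 6.47 times for Cybb and 3.22 times for Ncf1. For Nox4 the ratio was 1.08 in CPM and -0.159 in TPM, where MC2 lay below the mean of MS-5 only, so that its evenness depends on the unit. Of the 491 genes called higher in co-culture over all genes tested, 373 had a ratio over 3, with a median of 5.98 over the 491.

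Some leukocyte marker genes were highest in the same library. Of 18 markers, 13 were tested and 6 were higher in co-culture, namely Ptprc, Laptm5, Coro1a, Spi1, Irf8 and Csf1r, and 0 were lower, against 3.71% and 0.666% of all genes. MC2 held between 66.6% and 78.5% of the excess of these 6 genes. The summed level of the 18 markers was 64.3 to 77.7 CPM in MS-5 only against 119, 407 and 115 CPM in MC1, MC2 and MC3. Of the myeloid genes on the list, Spi1 had 4, 15 and 8 counts in the MO libraries against 273, 1357 and 353 in the MC libraries, and Csf1r had 2, 1 and 5 against 35, 129 and 42. Irf8 was at 0 in all MO libraries. Mpo, with 8, 39 and 1 counts against 198, 844 and 155 (edgeR adjusted p = 0.121), and Was, with 2, 17 and 1 against 44, 215 and 72 (edgeR adjusted p = 0.141), did not pass, though their groups did not overlap. Itgam was too low to be tested, with 0, 5 and 1 counts against 12, 49 and 29. Tyrobp, Fcer1g and Cd52 were at 0 to 6 counts in every library and Cd33 at 0 to 14, while Lyz2 had log2 fold change -0.37 (edgeR adjusted p = 0.60) and Cd53 had -0.11 (edgeR adjusted p = 0.964). Lcp1, Hcls1 and Itgb2 had log2 fold changes of 1.17, 0.87 and 0.60 and did not pass (edgeR adjusted p = 0.263, 0.39 and 0.585). The part of leukocyte RNA, or of human RNA counted on mouse transcripts, in the levels of Cybb, Rac2, Ncf1, Vav1 and Prex1 was not tested, and in bulk RNA more cells of a type and more RNA per cell cannot be told apart.

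The 12 stromal markers were all tested and 0 passed in edgeR, against 4.38% of all genes. At an unadjusted p under 0.05 there was 1, Pdgfra, against 14.3% of all genes. The summed level of the 12 markers was 13176 to 14909 CPM in MS-5 only against 14856 to 17557 CPM in co-culture. Col1a1, Vim, Sparc and Fn1 were abundant in all libraries. Lepr was low in all libraries, with 0 to 20 counts, and Thy1 was low in some, with 10 to 146 counts.

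**Figure D5:**
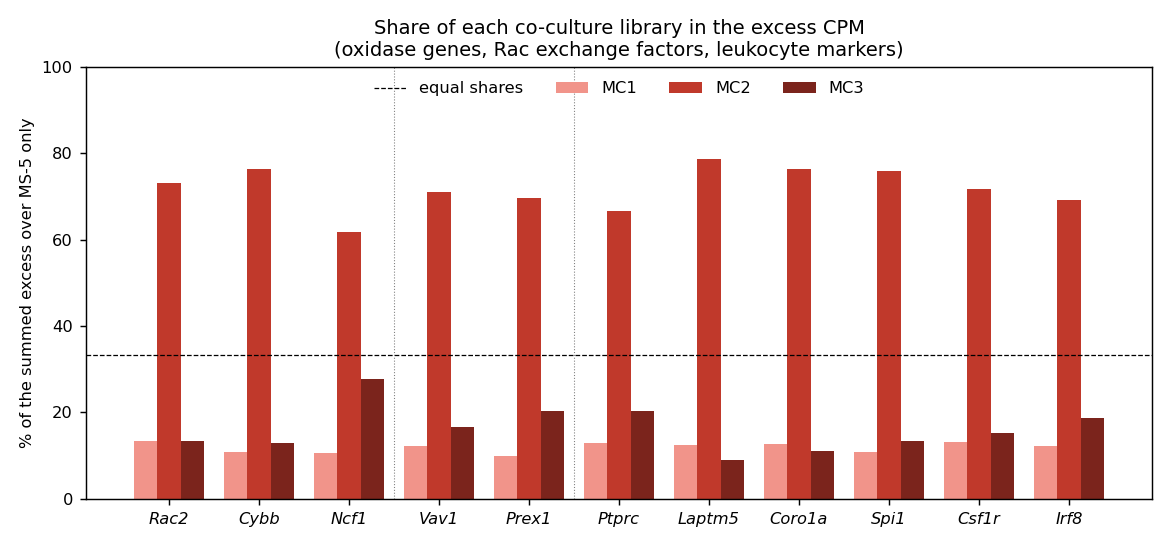
Share of each co-culture library, in percent, in the excess of normalized CPM over the mean of MS-5 only, for Rac2, Cybb, Ncf1, the exchange factors Vav1 and Prex1, and the 6 leukocyte markers that were higher in co-culture. The dashed line marks equal shares. MC2 holds from 61.7% (Ncf1) to 78.5% (Laptm5).

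The genes whose log2 CPM was most like that of Rac2 over the 6 libraries were Gm7434 (Pearson's r = 0.999), Hnmt (0.998) and Gm5781 (0.998), of which Gm7434 and Gm5781 are processed pseudogenes. Those most like Nox4 were Sav1 (0.979), Gm3272 (0.969) and Jund (0.964), with Gm3272 a processed pseudogene. These values are descriptions over 6 libraries in 2 groups, which share depth and the division into MO2 and MC3 against the rest.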

How the data were processed

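RNA was measured in 3 libraries of MS-5 only and 3 of co-culture, grouped and numbered by their labels. The authors quantified paired reads with kallisto 0.43.0 against a mouse GRCm38 (mm10) cDNA index, and the deposited values are estimated counts per transcript, not normalized, and TPM. The deposited transcript lengths served only for lengths and effective lengths. Of 118489 transcripts, 116728 matched GENCODE M21 (GRCm38) in version and length, and 1761 were left out. Gene totals are rounded sums over transcripts. Genes were filtered with filterByExpr and normalized by TMM, which also gave the CPM values, and tested with edgeR 4.0.16 in R 4.3.3 (quasi-likelihood, Benjamini-Hochberg over 13221 genes, threshold 0.1). Sleuth, used in the study, was not used here. Standard errors are the log2 fold change over the square root of F. Steps were tested on simulated data. Words of 31 bases were searched in all M21 transcripts, on both strands for other genes.

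The alternatives were DESeq2 1.42.0, limma 3.58.1 on log2(TPM + 0.5), other size factors, filters and thresholds, a replicate block, a covariate for MO2 and MC3 and each library left out. The members and the gene lists were chosen with earlier results of these data known. Named genes were the 9 members, the other oxidase genes that passed (the rest mainly by range), and the 3 genes most correlated with Nox4 and with Rac2. Tiam1, Tiam2, Vav2, Vav3, Cybc1, Noxo1, Rac3, Arhgdia, P4hb and Prkcd were named after their values were seen. Some results are not reported here. Depth limits genes with few counts, such as Nox1.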

Additional observations from a re-analysis of the deposited data

How the results depend on the processing

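The count of members past an adjusted p of 0.1, 2 by edgeR's quasi-likelihood test, was 1 (Rac2) with limma on log2(TPM + 0.5), log2(TPM + 0.1) or log2(TPM + 1), 4 with a covariate for MO2 and MC3 (Cybb, Rac2, Ncf1 and Cyba), and 0 with the longest coding transcript only or at a threshold of 0.05 or 0.01. It lay between 0 and 2 when each library was left out, with 0 in the fits without an MS-5 only library. The count of other oxidase genes, also 2, was 0, 1 and 0 with limma at a pseudocount of 0.5, 0.1 and 1, 5 with the covariate, 0 with the longest coding transcript only and at both stricter thresholds, and 0 to 2 when each library was left out. Vav1 and Prex1 had too few counts to be tested with the longest coding transcript only. Over all genes, 579 passed, against 1268 with DESeq2's Wald test, 356 and 224 with limma at pseudocounts of 0.5 and 1, 3999 with the covariate, 238 with the longest coding transcript only, 2 at a threshold of 0.05, 0 at 0.01, and 0 to 549 when each library was left out. The cause was not tested, other than that fewer genes, 11717, were tested with the longest coding transcript.

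With the replicate number as a block, 3 members passed (Cybb, Rac2 and Ncf1), as did Vav1 and Prex1. The correlation, across genes, of same-numbered libraries' deviations from their group means was 0.53, -0.29 and -0.52, and that of MO2 with MC3 was 0.73. The labels give these libraries only a shared number. The correlations cannot decide whether they were paired, because each deviation is from a group mean that includes MO2 or MC3.

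The log2 fold change of Poldip2 was -0.0078, -0.0079 and -0.0078 with limma at pseudocounts of 0.5, 0.1 and 1, and -0.13 to 0.23 when each library was left out. That of Rac1 was -0.064 with the longest coding transcript only and -0.15 to 0.31 with a library left out, and that of Ncf4 was -0.21 to 0.58 with a library left out. Cybb stayed between 2.26 and 5.38, Rac2 between 4.49 and 7.67, Ncf1 between 1.11 and 4.82, Nox4 between 0.14 and 0.38 and Cyba between 0.12 and 0.69 over the alternatives in which each was tested. Rac2 and Ncf1 had too few counts to be tested with the longest coding transcript only. In TPM in place of CPM, the excess in MC2 over the mean of MC1 and MC3 was 4.27 for Rac2 and 4.90 for Cybb. By counts per kilobase in place of TPM, Rac2 took rank 7, Cybb 6, Nox1 9 and Ncf1 8 among the 9 genes in MS-5 only. Genes with few counts, such as Nox1 and Ncf1, carry more counting error, and all genes rest on 3 libraries per group. Which of these limits a given gene was not tested.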
